A study of Mus musculus with 9 samples.

Results

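The neurotrophin system was followed through 8 genes of the 35275 listed in a table of read counts from mouse mammary tumors. They were the receptor gene *Ngfr*, its homolog *Nradd*, the coreceptor gene *Sort1*, the Trk receptor genes *Ntrk2* and *Ntrk3*, and the ligand genes *Bdnf*, *Ntf5* and *Ntf3*. The group was selected on the measured level of *Ngfr*, which was higher in treated than in saline tumors. The difference of *Ngfr* from saline is therefore given as a description without a test. The other 7 genes were taken because they encode ligands, coreceptors or relatives of the same receptor, and not for their values. Of the 8 genes, 6 passed the filter on low counts, and *Ntrk3* and *Ntf3* did not.

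BDNF, NT-3 and NT-4 are secreted growth factors that support neurons. They are made as longer proneurotrophins and cut to their mature form by proteases. The product of *Ngfr*, p75NTR, is a death domain receptor of the TNF receptor superfamily that binds every mature neurotrophin with low affinity, and proneurotrophins together with sortilin, the product of *Sort1*. The Trk receptors are tyrosine kinases with a choice of ligand, TrkB for BDNF and NT-4, and TrkC for NT-3. In the mammary gland, p75NTR is known from basal and myoepithelial cells, and elsewhere from Schwann cells, neural crest derivatives, pericytes and follicular dendritic cells.

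RNA was sequenced from 9 mammary gland tumors, 3 from each of 3 groups of Brca1Co/Co;MMTV-Cre;p53+/- mice. The groups received saline, free Talazoparib by vein (i.v. TLZ) or liposomal Talazoparib by vein (NanoTLZ), with 5 doses at 3 per week and 0.33 mg/kg of drug per dose in both treated groups. Talazoparib inhibits PARP, an enzyme of DNA repair. Every mouse, saline controls included, carried the conditional *Brca1* alleles, the Cre recombinase driven by the MMTV promoter, and 1 functional copy of p53. This promoter acts mainly in mammary epithelium. No group therefore shows the drug in tumors of mice without this genotype. Tumors arose spontaneously, each tumor was 1 replicate, and a group treated with empty particles was not among the sequenced tumors, so drug and carrier cannot be told apart in NanoTLZ. Ages were not given in the labels.

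Gene counts summed to 17538380 in the shallowest tumor, 19747343 in the median tumor and 21194980 in the deepest. Levels are given as CPM, the share of a tumor's counts on the usual CPM scale after TMM adjustment of library size, and a level of 3 counts, between 0.138 and 0.172 CPM, was taken as the floor, which covers counting error only. The epithelial genes *Epcam*, *Krt8* and *Krt18*, which mark mammary epithelium, were high in every group, and *Epcam* averaged 1034 ± 212, 877 ± 426 and 1074 ± 123 CPM (SD, n = 3) in saline, i.v. TLZ and NanoTLZ tumors. Saline tumor A3688 stood apart from the other saline tumors. It had 1849 CPM of the basal keratin gene *Krt5* against 4.86 and 3.15 in the other two, and 558 CPM summed over 10 skeletal muscle genes.

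*Ngfr* (ENSMUSG00000000120, chromosome 11 of GRCm38 from 95568818 to 95587735, minus strand) encodes p75NTR. *Nradd* (ENSMUSG00000032491, chromosome 9 from 110621135 to 110624452, minus strand) encodes a relative of p75NTR with the membrane and death domains but without the region that binds neurotrophins. The sequences just upstream of both genes are shown because *Ngfr* carries the difference between treated and saline tumors and *Nradd* was the member whose level was most like it. They are taken from RefSeq on GRCm38 and written 5′ to 3′ along the gene, at chr11:95587736-95587948 and chr9:110624453-110624643, both minus strand, and CG dinucleotides are in capitals.
Ngfr: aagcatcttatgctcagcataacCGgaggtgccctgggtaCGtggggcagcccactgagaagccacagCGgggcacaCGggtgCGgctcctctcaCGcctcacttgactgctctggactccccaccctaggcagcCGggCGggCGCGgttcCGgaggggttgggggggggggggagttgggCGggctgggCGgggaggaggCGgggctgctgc
Nradd: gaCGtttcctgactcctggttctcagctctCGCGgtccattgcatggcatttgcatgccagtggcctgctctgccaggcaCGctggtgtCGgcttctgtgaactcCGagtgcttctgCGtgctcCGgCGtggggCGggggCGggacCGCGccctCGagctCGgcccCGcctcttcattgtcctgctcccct
Within the RefSeq window of 300 bases around each start, that of *Ngfr* had 23 CG dinucleotides and 71.7% G and C, and that of *Nradd* had 20 and 65.7%. The median over 32817 windows of the same length was 7 CG, and 21.5% held at least as many as *Ngfr* and 26.5% at least as many as *Nradd*. The GC box motif GGGCGG, which contains a CG itself, was found 4 times in the *Ngfr* window and 3 times in the *Nradd* window, counting both strands, and 35.6% of all windows held it. Neither window held the letters TATAAA on either strand, which 13.6% of all windows did.

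*Ngfr* was low in every saline tumor, at 1.14 CPM in A3673, 1.72 CPM in A3685 and 1.65 CPM in A3688. After i.v. TLZ it had 30.0 CPM in B3638, 6.18 in B3684 and 3.73 in B3700. After NanoTLZ it had 48.5 CPM in C3519, 25.2 in C3669 and 7.14 in C3698. Each of the 6 treated tumors exceeded each saline tumor, a separation that 2.81% of the 15821 tested genes showed in this direction and that the choice of the gene fixed. The lowest treated tumor was 2.18 times the highest saline tumor, and the treated tumors differed among themselves by 13.0 times. In these whole tumors, more cells of a type and more RNA per cell cannot be told apart.

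**Figure D1:**
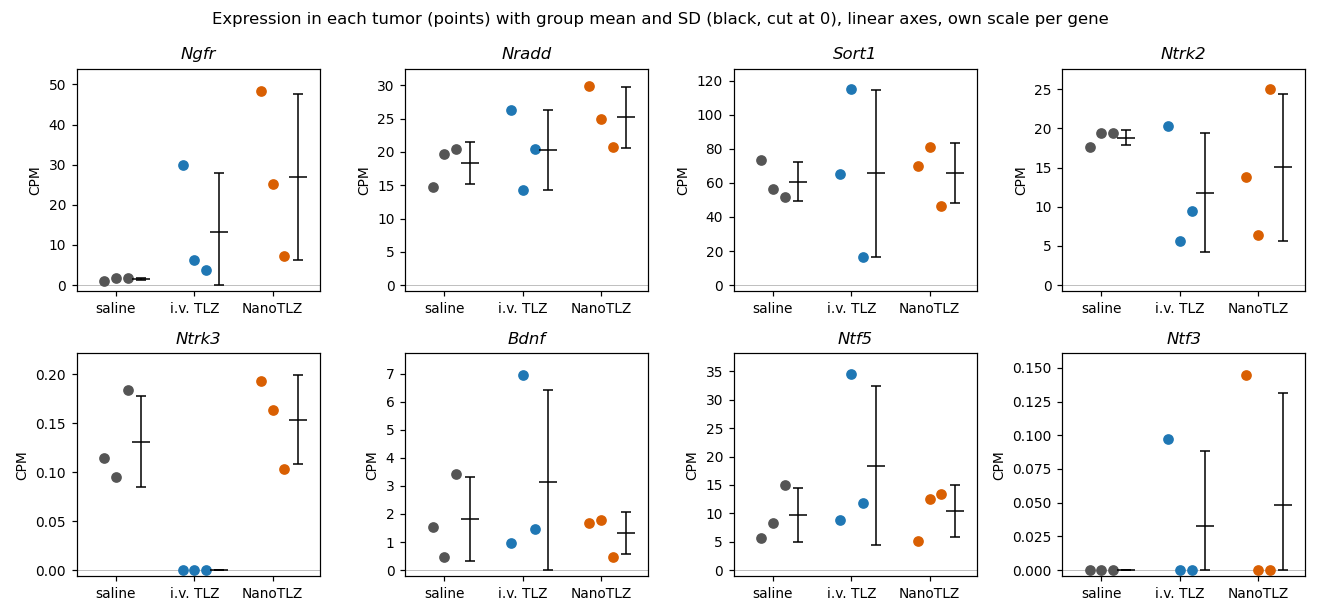
Level of each of the 8 genes in CPM (y axis, linear from 0, own scale per gene) in saline, i.v. TLZ and NanoTLZ tumors (x axis). Points are single tumors in label order, and black marks are the group mean and SD with n = 3, with the lower bar cut at 0. All 6 treated tumors lie above the saline tumors for *Ngfr*, while the groups overlap for *Sort1*, *Ntrk2*, *Bdnf* and *Ntf5*, and *Ntrk3* and *Ntf3* stay within 4 counts in every tumor.

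In saline, i.v. TLZ and NanoTLZ tumors the mean of *Ngfr* was 1.504 ± 0.313, 13.3 ± 14.5 and 26.9 ± 20.7 CPM (SD, n = 3). The fitted level was 8.80-fold that of saline after i.v. TLZ, or 3.14 on the log2 scale with a standard error of 0.88. After NanoTLZ it was 17.8-fold, or 4.15 with a standard error of 0.92. Both differences use the same saline tumors. The i.v. TLZ value rested on B3638, and without this tumor it was 1.71 with a standard error of 0.69. Without saline tumor A3688 the log2 differences were 3.21 and 4.25.

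The level of *Ngfr* after NanoTLZ was not distinguishable from that after i.v. TLZ. The log2 difference was 1.02 with a standard error of 0.81 and a 95% interval from -0.79 to 2.82 (edgeR, unadjusted p = 0.239, adjusted p = 0.9999). NanoTLZ tumor C3698 lay below i.v. TLZ tumor B3638, and the groups overlapped. The size of the difference depended on single tumors, at 2.44 with a standard error of 0.75 without B3638, 1.49 without C3698 and 0.28 without C3519, and it did not pass in any of these fits.

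*Nradd* differed less between tumors than *Ngfr* did. Its saline levels were 14.8, 19.7 and 20.5 CPM for A3673, A3685 and A3688. After i.v. TLZ *Nradd* had 26.2 CPM in B3638, 14.3 in B3684 and 20.5 in B3700. NanoTLZ tumors had 29.9 CPM in C3519, 24.9 in C3669 and 20.7 in C3698. The 3 tumors with the most *Ngfr*, C3519, B3638 and C3669, were also the 3 with the most *Nradd*. The NanoTLZ tumors were all above the saline tumors, which 7.82% of all tested genes showed in this direction, although C3698 exceeded A3688 by little. The i.v. TLZ tumors overlapped with saline, where 5.99% of tested genes lay wholly above it. The fitted log2 difference from saline was 0.15 ± 0.32 (SE, edgeR adjusted p = 0.893) for i.v. TLZ and 0.46 ± 0.32 (SE, edgeR adjusted p = 0.655) for NanoTLZ, and neither passed.

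*Sort1* (ENSMUSG00000068747, chromosome 3 from 108284082 to 108361511, plus strand), the coreceptor for proneurotrophins, had 73.6, 56.4 and 51.8 CPM in saline tumors A3673, A3685 and A3688. After i.v. TLZ it spread from 16.8 CPM in B3700 to 115 in B3684, with 65.2 in B3638. NanoTLZ tumors had 69.9, 81.0 and 46.3 CPM in C3519, C3669 and C3698. The i.v. TLZ group held both the highest and the lowest of the 9 tumors. The fitted log2 difference from saline was 0.11 after i.v. TLZ, with a 95% interval from -1.10 to 1.33, and 0.12 after NanoTLZ, with an interval from -1.10 to 1.33 (edgeR adjusted p = 0.954 and 0.960). With 3 tumors per group, differences of either sign within these intervals remain possible. The antisense gene Gm12523 shares 338 exon bases with *Sort1* and was listed at 0.

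*Ntrk2* (ENSMUSG00000055254, chromosome 13 from 58806569 to 59133970, plus strand) encodes TrkB in a kinase form and in shorter forms without the kinase, which a count per gene does not separate. The saline tumors lay close together, at 17.7, 19.4 and 19.4 CPM in A3673, A3685 and A3688. After i.v. TLZ *Ntrk2* had 20.3 CPM in B3638, 5.58 in B3684 and 9.52 in B3700. After NanoTLZ it had 13.8 CPM in C3519, 6.39 in C3669 and 25.0 in C3698. Of the treated tumors, 4 lay below all saline tumors and 2 above them. The SD was 0.980, 7.60 and 9.40 CPM in saline, i.v. TLZ and NanoTLZ tumors (n = 3 each), and the difference in spread was not tested. The fitted log2 difference from saline was -0.67 ± 0.56 (SE, edgeR adjusted p = 0.680) for i.v. TLZ and -0.32 ± 0.56 (SE, edgeR adjusted p = 0.872) for NanoTLZ. For i.v. TLZ it was -1.32 without B3638 and -0.34 without B3684.

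*Ntrk3* (ENSMUSG00000059146, chromosome 7 from 78175959 to 78738012, minus strand) encodes TrkC, the receptor for NT-3. It had 2, 2 and 4 counts in the saline tumors, 0 in all 3 i.v. TLZ tumors, and 4, 3 and 2 counts in the NanoTLZ tumors. Only A3688 and C3519 exceeded the floor of 3 counts, so no fold is given. The mean log2 CPM of 6 treated and 3 saline tumors gave p = 0.345 in a two-sided exact permutation test over 84 splits, which cannot go below 0.0119.

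Among the ligands, *Bdnf* (ENSMUSG00000048482, chromosome 2 from 109674700 to 109727007, plus strand), a ligand of TrkB and p75NTR, was low. Saline tumors had 1.54, 0.477 and 3.44 CPM in A3673, A3685 and A3688. After i.v. TLZ *Bdnf* had 0.969 CPM in B3638, 6.94 in B3684 and 1.46 in B3700. In NanoTLZ tumors it had 1.68, 1.80 and 0.466 CPM in C3519, C3669 and C3698. The level of B3684 came from 127 counts, and the other treated tumors lay within the range of saline or, in C3698, just under it. The fitted log2 difference from saline was 0.77 ± 0.92 (SE, edgeR adjusted p = 0.790) for i.v. TLZ and -0.47 ± 0.92 (SE, edgeR adjusted p = 0.893) for NanoTLZ. Without B3684 the i.v. TLZ value turned to -0.58, and without A3688 the NanoTLZ value turned to 0.42. The antisense gene Gm45346 shares 896 exon bases with *Bdnf*, and the strand setting of the counting is not given in the sources used here, so reads of both cannot be told apart.

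*Ntf5* (ENSMUSG00000074121, chromosome 7 from 45413695 to 45417179, plus strand) encodes NT-4, the other ligand of TrkB. Saline tumors had 5.66, 8.34 and 14.96 CPM in A3673, A3685 and A3688. After i.v. TLZ it had 8.82 CPM in B3638, 34.5 in B3684 and 11.8 in B3700. Levels of NanoTLZ tumors were 5.15, 12.6 and 13.5 CPM in C3519, C3669 and C3698. Apart from B3684, every treated tumor was below the highest saline tumor. The fitted log2 difference from saline was 0.93 ± 0.61 (SE, edgeR adjusted p = 0.600) for i.v. TLZ and 0.10 ± 0.61 (SE, edgeR adjusted p = 0.970) for NanoTLZ. The i.v. TLZ value rested on B3684 and was 0.0931 without it, and 1.41 without A3688.

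*Ntf3* (ENSMUSG00000049107, chromosome 6 from 126101412 to 126166910, minus strand) encodes NT-3, the ligand of TrkC. It had 2 counts in B3638, 3 counts in C3519 and 0 counts in the other 7 tumors, which allows up to 3 counts in each of them. The same exact permutation test gave p = 0.143. *Ntf3* was therefore at or under the floor in every tumor.

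The high values of *Sort1*, *Bdnf* and *Ntf5* fell in 1 tumor. B3684 was the highest of the 9 tumors for these 3 genes and the lowest for *Ntrk2*, with 5.58 CPM. It was also the highest for *Lingo1*, a p75NTR partner in neurons, with 23.8 CPM against 0.818 to 5.37 elsewhere, and for *Bex1*, which encodes a small protein that binds p75NTR, with 7.65 CPM against 0.114 to 0.780. These 2 genes were named after their values were seen. *Ngfr*, at 6.18 CPM, was not among the highest in this tumor.

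Across members other than *Ngfr*, no difference from saline or between formulations passed. edgeR called 0 of the 5 tested members after i.v. TLZ, where it called 0% of all tested genes, and 0 of 5 after NanoTLZ, where it called 0.00632%. It called 0 of 5 between NanoTLZ and i.v. TLZ, where it called 0%, and 0 of 5 for the mean of both treatments, where it called 0.019%. At an unadjusted p under 0.05 the count of members was also 0 in all 4 comparisons, and the share of all genes was 10.4% for i.v. TLZ, 8.99% for NanoTLZ, 1.68% for the direct comparison and 13.1% for the mean. The median log2 difference of the 5 members was 0.15 after i.v. TLZ and 0.10 after NanoTLZ, beside -0.03 and -0.09 over all tested genes. DESeq2 on all 9 tumors called 0 of 7 members in each comparison, and it called 1.12%, 0.566%, 0.0119% and 1.71% of all genes in the same order. On only the groups compared it called 0 of 7 and 0.534%, 1.01% and 0.0705% of all genes. The only member with an unadjusted DESeq2 p under 0.05 was *Ntrk3* in the direct comparison on all 9 tumors, at the counts given above and an adjusted p of 1.0.

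**Figure D2:**
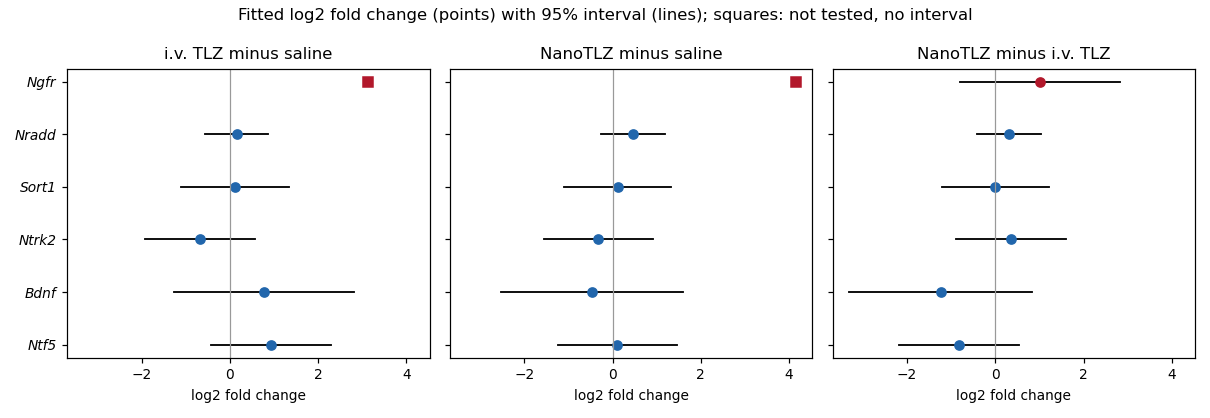
Fitted log2 fold change (x axis) of the 6 tested members (rows) for i.v. TLZ against saline, NanoTLZ against saline and NanoTLZ against i.v. TLZ. Lines are 95% intervals from edgeR, and squares mark *Ngfr* against saline, at 3.14 and 4.15, drawn without an interval because the gene was chosen on that difference. The intervals of the other 5 members include 0 in each panel.

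Per kilobase of exon, levels can be set beside each other between genes. In saline tumors the order of mean levels, in CPM per kb, was *Nradd* at 10.1, *Sort1* at 8.01, *Ntf5* at 3.64, *Ntrk2* at 0.975, *Ngfr* at 0.436 and *Bdnf* at 0.293. *Nradd* and *Sort1* did not differ beyond their spread, since *Nradd* exceeded *Sort1* in 2 of 3 tumors. *Sort1* exceeded *Ntf5*, *Ntf5* exceeded *Ntrk2*, and *Ntrk2* exceeded *Ngfr* in 3 of 3 saline tumors, while *Ngfr* exceeded *Bdnf* in 2 of 3.

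After i.v. TLZ, *Ngfr* had 3.86 CPM per kb and stood behind *Nradd* at 11.2, *Sort1* at 8.67 and *Ntf5* at 6.92, and ahead of *Ntrk2* at 0.611 and *Bdnf* at 0.503. *Ntf5* exceeded *Ngfr* in 2 of 3 of these tumors, and *Ngfr* exceeded *Ntrk2* in 3 of 3. After NanoTLZ, *Ngfr* had 7.81 CPM per kb, behind *Nradd* at 13.9 and *Sort1* at 8.68, and ahead of *Ntf5* at 3.91, *Ntrk2* at 0.781 and *Bdnf* at 0.212. *Sort1* exceeded *Ngfr* and *Ngfr* exceeded *Ntf5* in 2 of 3 tumors each, so these neighbours did not differ beyond their spread.

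The balance of p75NTR and TrkB transcripts followed from these levels. The ratio of *Ngfr* to *Ntrk2* per kb was 0.362, 0.495 and 0.478 in saline tumors A3673, A3685 and A3688. It was 8.29, 6.202 and 2.19 after i.v. TLZ and 19.7, 22.1 and 1.60 after NanoTLZ. Per kb, *Ntrk2* was the higher of the pair in every saline tumor and *Ngfr* in every treated tumor. This order depends on the exon lengths used, 19292 bases for *Ntrk2*, over all its forms, and 3446 for *Ngfr*. Without scaling by length, *Ntrk2* exceeded *Ngfr* in B3700 (9.52 against 3.73 CPM) and C3698 (25.0 against 7.14 CPM). *Ngfr* exceeded *Ntrk2* in CPM in the other treated tumors. Because the ratio contains the level on which *Ngfr* was chosen, no test is given.

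**Figure D3:**
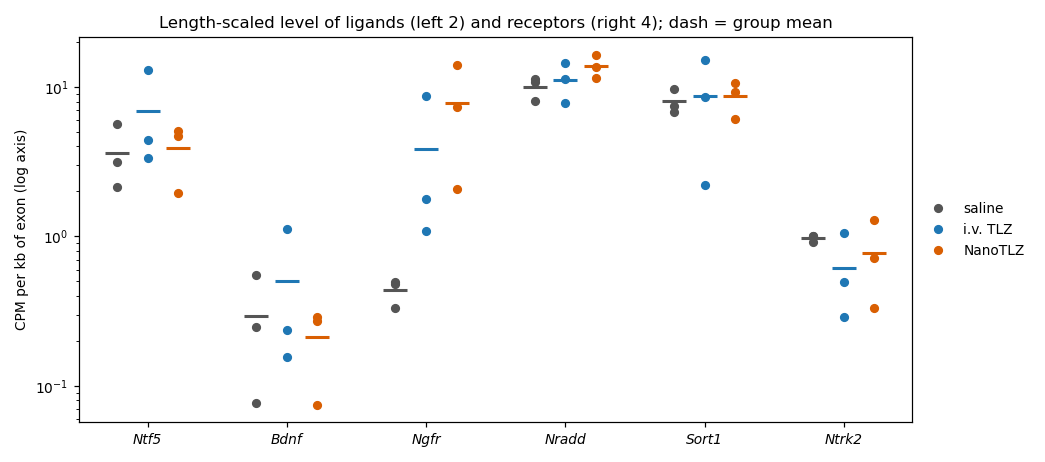
Length-scaled level in CPM per kb of exon (y axis, log scale) of 2 ligand genes and 4 receptor genes (x axis) in saline, i.v. TLZ and NanoTLZ tumors. Points are single tumors and dashes are group means. *Ngfr* lies below *Ntrk2* in the 3 saline tumors and above it in each treated tumor, and *Nradd* and *Sort1* lie near 10 in all groups apart from single tumors.

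The wider pathway was read from 5 gene lists, and edgeR called no gene of them in any of the 4 comparisons. Of 8 further ligands, receptors and partners, 6 were tested, with a median log2 difference of 0.64 for i.v. TLZ and -0.03 for NanoTLZ. The sortilin relative *Sorl1* had 161 ± 89.3, 79.7 ± 13.8 and 89.1 ± 33.8 CPM in saline, i.v. TLZ and NanoTLZ tumors (SD, n = 3). *Sorcs2*, another sortilin relative and coreceptor for proneurotrophins, had 47.4 ± 35.0, 84.1 ± 50.6 and 82.3 ± 18.0 CPM. *Rtn4r*, the Nogo receptor that pairs with p75NTR, had 5.56 ± 2.65, 13.0 ± 8.53 and 18.3 ± 7.35 CPM. The groups overlapped for all 3 genes when both treatments were set against saline, while *Rtn4r* in the NanoTLZ tumors alone, at 9.93 to 23.8 CPM, lay above the 3.002 to 8.30 CPM of saline. Of all tested genes, 7.82% lay above saline in this way.

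All 15 genes for p75NTR partners and for its cleavage were tested, and their median log2 difference was -0.12 after i.v. TLZ and 0.03 after NanoTLZ. *Maged1*, which encodes an adaptor that binds the intracellular part of p75NTR, had 303 ± 62.0, 279 ± 116 and 288 ± 50.7 CPM in saline, i.v. TLZ and NanoTLZ tumors (SD, n = 3). *Arhgdia*, which encodes an inhibitor of small GTPases that p75NTR can release, had 692 ± 226, 1023 ± 184 and 798 ± 95.3 CPM. *Adam10*, a protease that sheds receptor ectodomains, had 216 ± 120, 182 ± 58.8 and 170 ± 16.6 CPM. *Ncstn*, a subunit of gamma secretase, had 134 ± 30.6, 118 ± 5.65 and 128 ± 18.8 CPM.

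Of 13 genes for proneurotrophin processing, 9 were tested, with a median of 1.002 after i.v. TLZ and 0.18 after NanoTLZ. *Furin*, the protease that cuts proneurotrophins inside the cell, had 340 ± 138, 393 ± 48.6 and 302 ± 61.0 CPM in saline, i.v. TLZ and NanoTLZ tumors (SD, n = 3). The plasminogen activator genes *Plau* and *Plat* had 96.6 ± 44.6 and 91.4 ± 32.03 CPM in saline, 198 ± 54.5 and 226 ± 197 after i.v. TLZ, and 148 ± 90.2 and 81.3 ± 43.6 after NanoTLZ. The i.v. TLZ median of this list depended on single tumors and was 0.45 without B3684, 0.46 without B3638 and 0.48 without A3688. The NanoTLZ median did so too, at -0.15 without A3688, 0.0115 without C3519 and 0.0397 without C3698.

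*Mmp3*, which encodes a matrix protease able to cut proneurotrophins outside the cell, was named after its values were seen. It had 6.75, 4.10 and 0.780 CPM in the saline tumors, 100, 78.0 and 16.5 in i.v. TLZ tumors B3638, B3684 and B3700, and 164, 140 and 18.8 in NanoTLZ tumors C3519, C3669 and C3698. Each treated tumor exceeded each saline tumor, a separation that 2.81% of tested genes showed in this direction. The 3 tumors with the most *Ngfr* had the most *Mmp3*. Its log2 difference from saline was 4.07 ± 1.01 (SE, edgeR adjusted p = 0.417) for i.v. TLZ and 4.80 ± 1.05 (SE, edgeR adjusted p = 0.552) for NanoTLZ, and edgeR did not call it. DESeq2 on all 9 tumors called it in both, with adjusted p = 0.00114 and 3.93e-05, so the call depended on the tool.

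Of 21 genes for Trk adaptors and effectors, 20 were tested, and their median log2 difference was -0.03 for i.v. TLZ and -0.05 for NanoTLZ. *Akt1*, which encodes a survival kinase, had 387 ± 78.2, 334 ± 136 and 364 ± 60.4 CPM in the same order of groups (SD, n = 3). The adaptor genes *Ptpn11* and *Grb2* stayed between 207 and 239 and between 166 and 172 CPM in group mean. Of 14 genes that growth factor signalling induces, all were tested, with a median of -0.19 and -0.29. *Egr1*, an early response gene, had 363 ± 279, 197 ± 172 and 155 ± 55.5 CPM in saline, i.v. TLZ and NanoTLZ tumors. *Dusp6*, which encodes a phosphatase that growth factor signalling induces, had 290 ± 93.8, 158 ± 55.9 and 162 ± 47.0 CPM. The treated tumors, at 106 to 217 CPM, were all below the saline tumors, at 228 to 398 CPM, a separation that 2.66% of tested genes showed in this direction, and edgeR did not call it. *Junb* had 377 ± 205, 581 ± 50.2 and 433 ± 73.2 CPM, and *Dusp4* had 150 ± 104, 188 ± 75.6 and 132 ± 16.6. *Vgf*, a gene that neurotrophins induce and singled out here after its values were seen, had 0.138 to 0.524 CPM in saline, 1.16 to 3.68 in i.v. TLZ and 0.530 to 1.201 in NanoTLZ tumors. The treated tumors did not overlap with saline, a separation that 2.81% of tested genes showed in this direction. The margin was small, with 0.530 CPM in C3519 against 0.524 in A3685. Saline tumors A3673 and A3688 were at the floor of 3 counts, with 0.172 and 0.138 CPM. For *Vgf*, edgeR made no call (adjusted p = 0.417 and 0.552). DESeq2 on all 9 tumors called it after i.v. TLZ (adjusted p = 0.0137) and for the mean of both treatments (adjusted p = 0.0362).

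Marker lists of cells known to carry p75NTR were read beside *Ngfr*, and their part in its difference was not tested. Genes called in a list are those called by edgeR unless DESeq2 is named. The 12 basal and myoepithelial genes summed to 2003 to 5039 CPM in saline, 2806 to 4311 in i.v. TLZ and 1486 to 2389 in NanoTLZ tumors, with 0 of 12 called, and the saline maximum was A3688. The sums were 4311, 3413 and 2806 CPM in B3638, B3684 and B3700, in the order of their *Ngfr* levels, and 2113, 2389 and 1486 CPM in C3519, C3669 and C3698. *Myh11* and *Cnn1*, contractile genes of myoepithelial and smooth muscle cells that were singled out after their values were seen, lay above saline in every NanoTLZ tumor, at 6.16 to 14.97 against 3.76 to 5.15 CPM and at 3.10 to 4.62 against 1.38 to 2.86 CPM. They were the only 2 of the 12 genes to do so, and 7.82% of all tested genes did. Most of the list went the other way after NanoTLZ, with 8 of 12 genes lower. Its median log2 difference was -0.31, beside -0.09 over all tested genes. *Krt14*, the basal keratin, had 927 ± 261, 1183 ± 1266 and 887 ± 291 CPM (SD, n = 3). The 12 Schwann and neural crest genes summed to 614 to 1642 CPM in saline, 568 to 1035 in i.v. TLZ and 574 to 773 in NanoTLZ tumors, with 0 of 10 called. Most of that sum was *Sox10*, with 710 ± 350, 504 ± 170 and 436 ± 59.7 CPM.

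The 12 neuron genes summed to 62.9 to 98.0 CPM in saline, 43.4 to 133 in i.v. TLZ and 55.8 to 79.8 in NanoTLZ tumors, with 0 of 6 called. Most of it was *Map2*, which other cells express too, and *Snap25* was at or under the floor in every tumor. Of the 6 tested genes, 5 were higher after i.v. TLZ and 5 after NanoTLZ. Their median log2 differences were 1.55 and 1.55, beside -0.03 and -0.09 over all tested genes. DESeq2 on all 9 tumors called 2 of them after i.v. TLZ, *Tubb3* and *Prph* (adjusted p = 0.0170 and 0.0104), which encode cytoskeletal proteins of neurons and had at most 7.25 and 4.70 CPM. In that comparison it called 1.12% of all genes. The 8 pericyte and smooth muscle genes summed to 331 to 548, 312 to 564 and 370 to 444 CPM, with 0 of 8 called. The 10 fibroblast genes summed to 2390 to 4880, 5501 to 10847 and 3870 to 5769 CPM, with 0 of 10 called. The i.v. TLZ tumors were above saline in that sum, and 5.99% of single tested genes lay wholly above it. Of the 10 fibroblast genes, 9 were higher after i.v. TLZ and 9 after NanoTLZ, with median log2 differences of 0.65 and 0.59. DESeq2 on the groups compared called *Pdgfra*, a receptor gene of fibroblasts, higher after NanoTLZ (log2 difference 1.41, adjusted p = 0.0475). It called 1.01% of all genes there. Of the follicular dendritic cell genes, 5 were listed, and nearly all of their sum was *Mfge8*, a gene of mammary epithelium too. *Cr2*, which defines these cells, had at most 0.776 CPM.

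The 8 endothelial genes summed to 79.9 to 196 CPM in saline, 94.4 to 225 in i.v. TLZ and 197 to 252 in NanoTLZ tumors, with 0 of 8 called. The NanoTLZ tumors lay just above saline in that sum. All 8 genes were higher after NanoTLZ, with a median log2 difference of 0.68, beside -0.09 over all tested genes. Of them, 4 lay wholly above saline, as did 7.82% of all tested genes. After i.v. TLZ 5 of 8 were higher, with a median of 0.09 beside -0.03, and 0 lay wholly above saline. The 10 leukocyte genes summed to 162 to 647, 262 to 669 and 594 to 811 CPM, with 0 of 8 called. The 10 luminal genes summed to 4435 to 8432, 6164 to 8229 and 4031 to 5757 CPM, with 0 of 10 called. Of the 10 genes, 5 were lower after i.v. TLZ and 8 after NanoTLZ, with median log2 differences of 0.01 and -0.45. DESeq2 on all 9 tumors called the transcription factor genes *Elf5* and *Ehf* lower for the mean of both treatments, by log2 differences of -1.01 and -0.93 (adjusted p = 0.0441 and 0.0362), and both were below saline in each treated tumor. Of all tested genes, 2.66% lay below saline in this way, and DESeq2 called 1.71% of all genes for that mean. The 8 adipocyte genes summed to 21.17 to 53.7, 11.6 to 54.6 and 24.0 to 131 CPM, with 0 of 3 called. The 10 skeletal muscle genes summed to 31.6 to 558 CPM in saline, 12.6 to 35.5 in i.v. TLZ and 13.3 to 20.9 in NanoTLZ tumors. Of the 9 tested, edgeR called 0, and DESeq2 on all 9 tumors called 6 lower in both treated groups. It called 1.12% of all genes for i.v. TLZ and 0.566% for NanoTLZ. The 8 cartilage genes summed to 496 to 783, 627 to 1010 and 796 to 1529 CPM. The NanoTLZ tumors were above saline in that sum, and 7.82% of single tested genes lay wholly above it. In this list 1 of 7 tested genes was called, *Col2a1*, a cartilage collagen, which rose after NanoTLZ by 5.26 on the log2 scale (edgeR adjusted p = 0.0127). Of all tested genes, edgeR called 0.00632% in that comparison. DESeq2 on all 9 tumors called *Col2a1* after i.v. TLZ too (log2 difference 3.50, adjusted p = 3.03e-10), and called *Acan*, a cartilage proteoglycan gene, for the mean of both treatments (4.75, adjusted p = 0.00992).

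**Figure D4:**
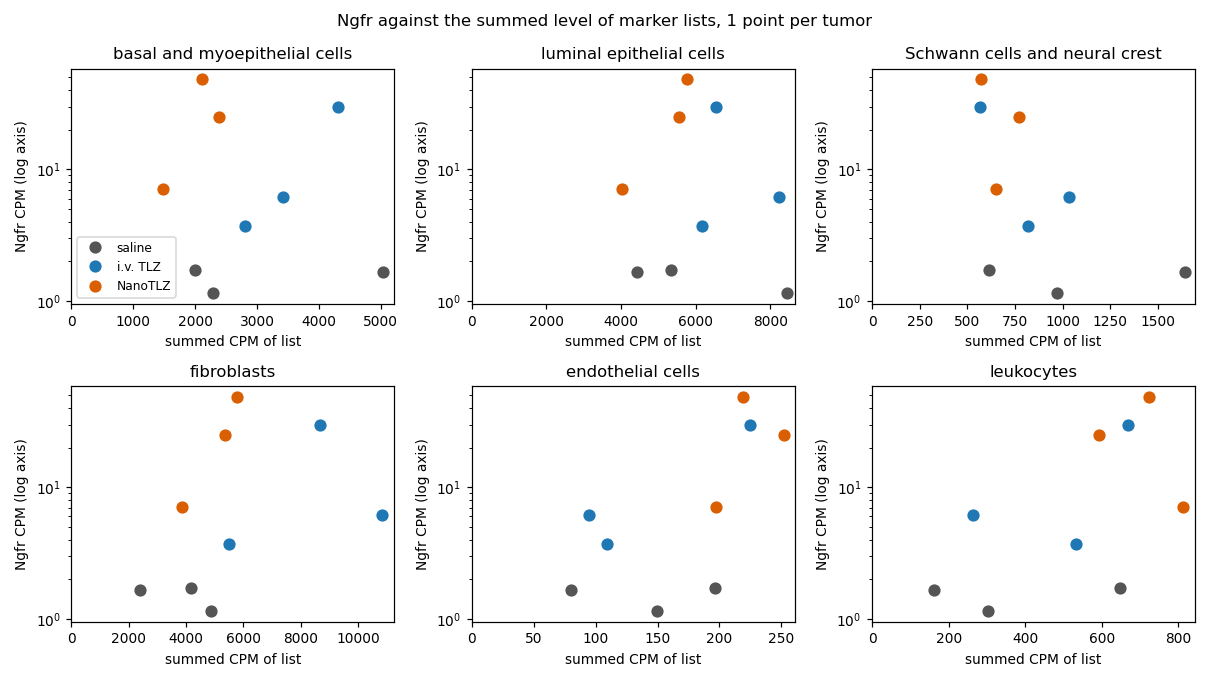
Level of *Ngfr* in CPM (y axis, log scale) against the summed CPM of 6 marker lists (x axis, linear from 0), 1 point per tumor and colored by group. The saline tumors lie at the bottom of each panel over a wide range of marker sums, from 2003 to 5039 CPM for the basal list. Marker sums of treated and saline tumors overlap in each panel, but some treated sums pass the saline range. For fibroblasts the i.v. TLZ tumors had 5501 to 10847 CPM against 2390 to 4880 in saline. For endothelial cells the NanoTLZ tumors had 197 to 252 CPM against 79.9 to 196. Some leukocyte sums also passed it, up to 811 CPM in NanoTLZ against 647 in saline.

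The genes whose level was most like that of *Ngfr* were ranked by Pearson's r of log2 CPM over the 9 tumors, which share libraries and groups, and the values are a description. The highest were Gm13372 at 0.95, *Tmprss11d* at 0.95, *Colec12* at 0.94, *Gja4* at 0.93 and *Tg* at 0.93. Of these, Gm13372 and *Tg* stayed under 1 CPM in every tumor. *Tmprss11d* was low too, at 0.0572 to 0.238 CPM in saline and at most 2.02 in treated tumors. *Colec12*, a scavenger receptor gene, had 11.9 to 16.4 CPM in saline and 17.1 to 40.1 in treated tumors. *Gja4*, a gap junction gene of arterial endothelium, had 4.52 to 5.00 CPM in saline and 9.24 to 20.2 in treated tumors. The lowest were *Ogfrl1* at -0.97, *Nhsl1* at -0.92, *Ubtd2* at -0.92, *Ttpa* at -0.92 and *Rad54l*, a gene of recombination repair, at -0.91. Among the members r was 0.76 for *Nradd*, 0.24 for *Sort1*, -0.25 for *Ntrk2*, -0.01 for *Bdnf* and -0.11 for *Ntf5*.

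Over the 6 treated tumors alone, which leaves out the contrast with saline, the highest were *Pgm5* at 0.99, Gm13372 at 0.99, *Cenpm* at 0.98, *Ngly1* at 0.98 and *Jmjd4* at 0.98. Both *Pgm5* and Gm13372 stayed under 1 CPM in every tumor, with 0.162 CPM, the floor of 3 counts, in B3700. *Cenpm*, a centromere gene, had 33.3 to 46.1 CPM in the 3 tumors with the most *Ngfr* and 7.82 to 11.3 in the other 3 treated tumors, yet 13.2 to 50.7 in saline tumors with little *Ngfr*. *Nradd* had r = 0.81 there and *Ntf5* had -0.68. By rank correlation, 3 of the 5 highest genes over 9 tumors and 2 of the 5 over the treated tumors were again among the 5 highest.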

How the data were processed

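Total RNA of whole tumors was sequenced and counted for the study by Novogene. The authors deposited raw counts of reads per gene for all 9 tumors, and the submitters' processing notes name TopHat2, DESeq2 and mm10. The counting program, annotation and strand setting are not given in the sources used here. Identifiers were matched to GENCODE M21 on GRCm38, and 34490 of 35275 had a symbol. Promoter windows were RefSeq's, on GRCm38.

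Genes were kept by filterByExpr of edgeR 4.0.16 (minimum count 10, minimum total 15), which left 15821. After TMM scaling, the 9 tumors entered 1 glmQLFit model with a term for each group, and p-values of glmQLFTest were adjusted by Benjamini-Hochberg over all tested genes, and called at an adjusted p under 0.05. DESeq2 1.42.0, RLE and upper quartile scaling, other filters, robust dispersion and each tumor left out were alternatives. *Ntrk3* and *Ntf3* were tested by exact permutation of log2 CPM, with 0.5 added to each count. Likeness used log2 CPM with a prior count of 2. Exon lengths were unions over transcripts. The fits were tested on simulated data. The edgeR and DESeq2 p-values rest on the spread between tumors within groups, with 3 tumors per group. Those of the permutation test rest on 84 splits of the 9 tumors into 6 and 3.

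The genes and lists were chosen with earlier results of these data known. Named were all 8 genes, up to 4 genes of highest mean CPM per list, any list gene called by edgeR, and the 5 genes most and least like *Ngfr*, and further names are marked in the text. Some genes under this rule are not reported here. The 5 pathway and 12 cell type lists hold genes of known role. Versions were R 4.3.3, Python 3.11.15, numpy 2.4.6, pandas 2.3.3 and matplotlib 3.10.9.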

Additional observations from a re-analysis of the deposited data

How the results depend on the processing

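Over 17 alternatives and 4 comparisons, 66 counts of called members were obtained, and each was 0. No paired analysis was possible because numbers that tie tumors of different groups are lacking in the labels. *Ngfr* kept its direction under all 17, and its i.v. TLZ and direct differences depended on B3638, without which they were 1.71 and 2.44. The range of the direct difference with 1 tumor left out was 0.28 to 2.44. Upper quartile scaling shifted the median of all genes by 0.09 at most. With 10 counts required in every tumor, *Bdnf* had no value and *Sort1* in the direct comparison was -5.15e-05. Without B3684 the i.v. TLZ difference of *Ntf5* was 0.0931. Several log2 differences changed sign when 1 tumor was left out. Among them were the direct differences of *Bdnf* and *Ntf5*, at -1.24 and -0.82 in the main fit. Against saline after i.v. TLZ the range was -0.0757 to 0.35 for *Nradd*, -0.57 to 0.59 for *Sort1* and -0.58 to 1.65 for *Bdnf*. After NanoTLZ it was -0.0289 to 0.35 for *Sort1*, -0.87 to 0.0774 for *Ntrk2*, -0.92 to 0.42 for *Bdnf* and -0.13 to 0.59 for *Ntf5*. In the direct comparison it was -0.44 to 0.68 for *Sort1*, -0.20 to 0.999 for *Ntrk2*, -1.67 to 0.12 for *Bdnf* and -1.15 to 0.0132 for *Ntf5*. For the mean of both it was -0.22 to 0.37 for *Sort1* and -0.52 to 1.04 for *Bdnf*. The cause was not tested. Fits on the groups compared give no value for the mean of both. Depth limits *Ntrk3* and *Ntf3*, at 4 counts or fewer per tumor.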
